A study of Homo sapiens with 4 samples.

Results

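Complex I of the mitochondrial respiratory chain (NADH:ubiquinone oxidoreductase) is covered here by the genes for its nuclear-encoded subunits and for the NDUFAF assembly factors. The members were the genes of the deposited table whose symbol starts with NDUFA, NDUFB, NDUFC, NDUFS, NDUFV or NDUFAF and a digit, with NDUFAB1. Of 110 such entries, 59 pseudogenes and 4 hyphenated symbols were left out, which gave 47 genes of 59050: 39 subunit genes, including NDUFA4 and NDUFA4L2, and 8 NDUFAF genes. RNA-seq read counts came from 4 libraries of HUES8, an established human embryonic stem cell line, grown on Matrigel in mTeSR1 medium: 2 labelled with the genotype CPT2 KO and 2 labelled WT. All 4 carry the same treatment label, WT. CPT2 encodes carnitine palmitoyltransferase II, which regenerates acyl-CoA from acylcarnitine inside mitochondria before beta-oxidation. The labels give neither the edited position in CPT2 nor the number of clones. Nor do they tell if both libraries of a label are separate cultures, and each p-value therefore reflects library-to-library variation that could be purely technical.

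Complex I oxidises NADH and passes the electrons to ubiquinone while pumping protons across the inner membrane. It is built from modules: the N module takes the electrons from NADH, the Q module hands them to ubiquinone, and the proximal and distal parts of the membrane arm pump protons. The core subunits carry the redox centres and the pumps and are partly encoded by mitochondrial DNA, accessory subunits surround and stabilise them, and assembly factors help to build the complex but are absent from the finished enzyme. Pluripotent stem cells are known for a high rate of glycolysis, and their respiratory chain becomes more active as they differentiate.

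CPT2 itself went against its label. It had 11.5 and 10.2 CPM (counts scaled to library size) in the CPT2 KO-labelled libraries, against 2.82 and 3.50 CPM in the WT-labelled libraries (log2 fold change 1.78, SE 0.27, edgeR adjusted p = 0.0218). A count over the whole gene cannot show whether the protein is made, and groups are therefore named by their labels below. Total counts were 20219396 and 16887789 in the CPT2 KO-labelled libraries and 18356754 and 20460031 in the WT-labelled libraries. Replicate 1 labelled WT stood apart: the chi-square per degree of freedom between libraries was 43.6 to 58.1 for the 3 pairs that include it and 11.2 to 13.6 for the other 3 pairs. Pluripotency genes were abundant throughout, with POU5F1 at 2109 and 2300 CPM against 2017 and 1884 CPM. Of the 7 pluripotency markers, 6 had a log2 fold change above 0, and LIN28A was at -0.10. ZFP42 was called higher, with 178 and 191 CPM against 85.8 and 102 CPM (log2 fold change 0.98, edgeR adjusted p = 0.0164). The 9 mesendoderm and endoderm markers summed to 539 and 79.0 TPM (scaled to gene length as well) in the CPT2 KO-labelled libraries and to 7.15 and 5.73 TPM in the WT-labelled libraries, with SOX17 and GATA6 at 0 in both WT-labelled libraries. All 7 tested markers of this list had a log2 fold change above 0. Of these, edgeR called 0 (lowest adjusted p = 0.0661, for GATA4) and DESeq2 called 6. Sums of the 6 neuroectoderm markers were 46.9 and 33.9 TPM against 54.6 and 43.0 TPM, of which SOX1 (log2 fold change -3.30, adjusted p = 0.0164) and SIX6 (-4.72, adjusted p = 0.0382) were called lower. PAX6 and OTX2 went the other way, at log2 fold changes of 1.01 and 1.25, and SIX3 was at -0.27, none of them called. LHX2 was not tested and had 3 and 4 counts against 0 and 0 counts. The 6 fibroblast markers summed to 201 and 191 TPM against 259 and 237 TPM, with DCN, LUM and COL3A1 at or near 0. The others on that list were expressed in every library and not called. THY1 had 231.5 and 239.3 CPM against 284.3 and 280.3 CPM, COL1A2 187.4 and 161.2 against 162.7 and 187.0 CPM, and COL1A1 29.35 and 32.84 against 29.16 and 32.91 CPM. The part of these differences in the values below was not tested, and in bulk RNA fewer cells of a type and less RNA per cell cannot be told apart.

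The 47 members are spread over 22 chromosomes (GENCODE release 29, GRCh38). Promoter sequence is shown so that members can be compared. RefSeq promoters, defined as the 250 bases before to the first 50 bases after a gene's start in GRCh38.p14, were matched by symbol for 40 of the 47 members. GCGCA and GCGC with any 1 base between them are a core of the recognition sequence of nuclear respiratory factor 1 (NRF1). On either strand they occurred in promoters of 7 of 40 members (17.5%) and of 6.98% of 27305 genes. Promoters were of the same length, and a gene with several was counted once. The NRF1 letters were found in NDUFA3, NDUFA8, NDUFA9, NDUFA11, NDUFA12, NDUFB4 and NDUFAF5. CCGGAAG, a core of ETS-family sites such as those of GABP, was present for 7 of 40 members (17.5%), against 12.2% of the 27305 genes. ATGGCGGC, a core of YY1 sites, was present for 10 of 40 members (25%), against 3.67% of the 27305 genes. Median log2 fold changes with and without the letters were 0.22 and 0.17 for NRF1, 0.32 and 0.20 for ETS, and 0.19 and 0.21 for YY1. A match is a description of letters and not evidence of binding.

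Below are the 180 bases immediately upstream of the start for 3 members with the NRF1 letters, NDUFB4, NDUFA3 and NDUFA12, and for NDUFAF4, which has the ETS letters and whose level varied most between the WT-labelled libraries among the assembly factors. All run 5′ to 3′ on the gene's own strand, at chr3:120596156-120596335 (plus strand), chr19:54102675-54102854 (plus strand), chr12:95003698-95003877 (minus strand) and chr6:96897892-96898071 (minus strand). Capitals mark complete NRF1 letters in the first 3 sequences and the ETS letters in the fourth.
NDUFB4: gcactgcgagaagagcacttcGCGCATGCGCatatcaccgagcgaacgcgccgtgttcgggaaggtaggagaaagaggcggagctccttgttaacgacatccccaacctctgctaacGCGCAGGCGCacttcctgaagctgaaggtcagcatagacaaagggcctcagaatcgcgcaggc
NDUFA3: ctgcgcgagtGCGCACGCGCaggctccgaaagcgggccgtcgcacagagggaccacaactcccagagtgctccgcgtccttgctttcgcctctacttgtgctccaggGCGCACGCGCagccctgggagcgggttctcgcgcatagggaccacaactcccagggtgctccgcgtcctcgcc
NDUFA12: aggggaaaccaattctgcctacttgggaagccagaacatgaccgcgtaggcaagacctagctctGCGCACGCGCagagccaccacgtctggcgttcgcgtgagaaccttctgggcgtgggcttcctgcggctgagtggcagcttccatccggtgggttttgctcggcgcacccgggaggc
NDUFAF4: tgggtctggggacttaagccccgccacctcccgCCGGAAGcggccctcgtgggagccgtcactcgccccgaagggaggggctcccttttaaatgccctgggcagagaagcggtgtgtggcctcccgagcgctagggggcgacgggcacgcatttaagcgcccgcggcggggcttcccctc
NDUFB4 and NDUFA3 each carry 2 complete matches in this stretch, and NDUFA12 and NDUFAF4 carry 1 each.

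Transcript levels per length differed widely between subunits that occur together in the same complex. On the TPM scale, which divides counts by the deposited gene length, NDUFS5 averaged 1098 TPM over the 4 libraries, NDUFA1 233 TPM, NDUFB7 213 TPM and NDUFB10 186 TPM. At the other end stood NDUFA4L2 with 0.925 TPM, NDUFA7 with 1.07 TPM and NDUFV2 with 2.18 TPM. NDUFV2 is a core subunit that holds an iron-sulfur cluster next to the NADH site, and NDUFA7 is an accessory subunit of the Q module. All 47 members passed the filter on low counts. Their summed level was 3813 and 4515 TPM in the CPT2 KO-labelled libraries and 3602 and 3953 TPM in the WT-labelled libraries. The deposited length joins every annotated exon of a gene, so a gene with rare long transcripts has a level that is too low on this scale.

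The lowest subunits were those that share coding sequence with another annotated gene. In GENCODE release 29, 9 of the 37 subunits outside the NDUFA4 family have over 30% of their coding bases inside exons of another gene on the same or the opposite strand, and these 9 are also the 9 with the lowest TPM. The limit of 30% was chosen after the values were seen. It falls in a gap, since the shares are 36.9% and above in these 9 subunits and 17% or less in the other 28. The split holds for coding bases and not for all exon bases. Of all exon bases, NDUFB11 shared 44.9% and NDUFA1 44.5%, at 134 and 233 TPM, whereas NDUFA9 shared 10.6%, at 2.79 TPM. The 9 subunits had a median of 4.96 TPM and reached at most 18.1 TPM (NDUFC2), whereas the other 28 had a median of 62.0 TPM and began at 18.2 TPM (NDUFV3).

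Same-strand sharing affects 7 of the 9: NDUFB8 (85.2% of its coding bases), NDUFV2 (84.7%), NDUFA7 (78.3%), NDUFC2 (76.9%), NDUFA9 (67.9%), NDUFA13 (55.2%) and NDUFA11 (36.9%). Even a count by strand cannot give a read from such a shared exon to 1 gene. The partners are annotated transcripts that span these exons, such as NDUFC2-KCTD14 for NDUFC2, which had 0 counts in all 4 libraries. The partner of NDUFA9, AC005833.1, had the most, with 54 and 56 counts in the CPT2 KO-labelled libraries and 38 and 52 in the WT-labelled libraries, and AC011448.1, that of NDUFA13, had 11 and 0 against 10 and 4. For NDUFV2 (chr18:9102630-9134345, plus strand) the partner AP005263.1 had 0 counts, and for NDUFA7 (chr19:8308768-8321396, minus strand) the partner AC010323.1 had 0 and 0 counts in the CPT2 KO-labelled libraries and 0 and 3 in the WT-labelled libraries. The remaining 2, NDUFS7 (48.5%) and NDUFB2 (45.2%), share coding bases with opposite-strand genes. In a count that ignores strand, reads from these bases are open to the same doubt, and the strand setting is not given. How the authors' counting treated reads in shared exons is not given in the sources used here, and the part of such reads in the low levels was not tested. Levels and fold changes of these 9 subunits are therefore uncertain.

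**Figure D1:**
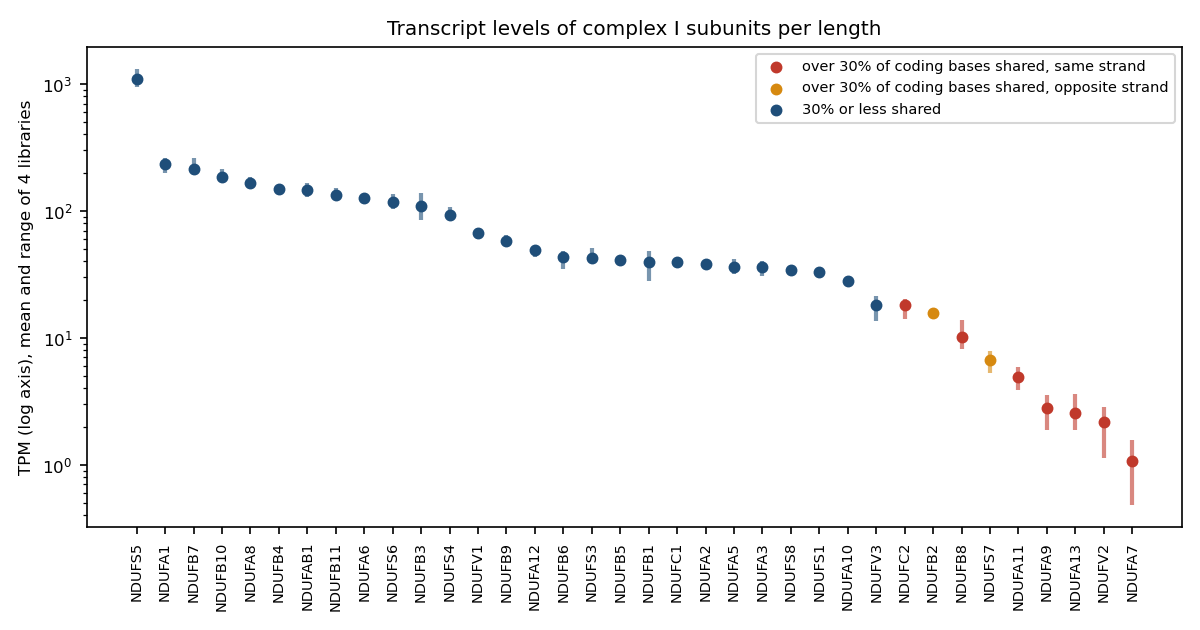
Level of 36 complex I subunits outside the NDUFA4 family, in TPM on a log axis, ordered from high to low. Points are means and lines the range over the 4 libraries, and colour gives the share of coding bases inside exons of another gene in GENCODE release 29. All 9 subunits with over 30% shared sit at 18.1 TPM or below.

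The comparison of CPT2 KO-labelled with WT-labelled libraries asked whether complex I transcripts differ between the genotypes. None of the 47 members was called at an adjusted p under 0.05 by edgeR's quasi-likelihood test, where 0.416% of 17564 tested genes were called, and DESeq2 and limma-voom also called 0 of 47, against 0.987% and 0.353% of the genes they tested. At an unadjusted p under 0.05 there were 5 members (10.6%), against 9.04% of all tested genes: NDUFA5, NDUFS5, NDUFAB1, NDUFAF2 and NDUFAF7. The lowest adjusted p of any member was 0.488, for NDUFAF2. Fold changes nonetheless leaned to one side, with 38 of 47 above 0 (80.9%, against 50.3% of all tested genes, and 36 of 47 when scaled by library size alone) and a median log2 fold change of 0.22, against 0.00 for all tested genes. Standard errors of single members ran from 0.14 to 0.77 with a median of 0.19, so a typical member's fold change was about as large as its standard error.

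Whether the groups overlap gave a similar picture. Both CPT2 KO-labelled libraries lay above both WT-labelled libraries for 18 members (38.3%, against 21.1% of all tested genes), and below them for 4 (8.51%, against 19.8%). The groups overlapped for the other 25. The lowest of the 4 libraries was replicate 1 labelled WT for 36 of the 47 members (76.6%, against 32.5% of all tested genes). Without that library the median of the members was 0.08, and without replicate 2 labelled WT it was 0.37. Dropping a CPT2 KO-labelled library instead gave 0.31 (replicate 1 dropped) or 0.10 (replicate 2 dropped).

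**Figure D2:**
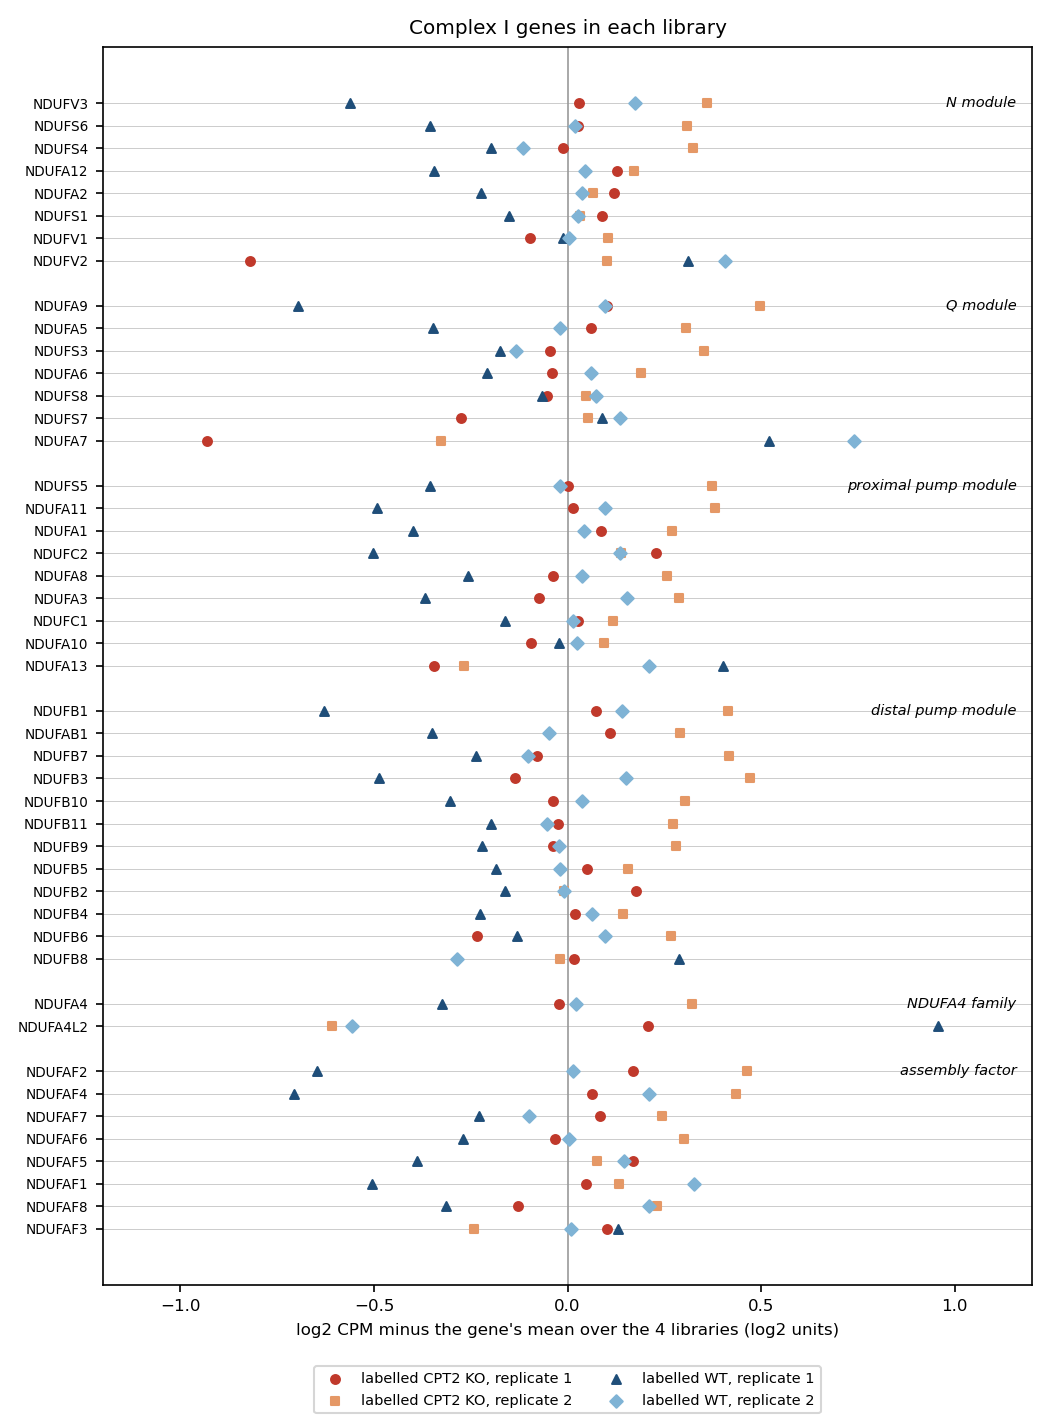
Log2 CPM of 46 members in each library, less the gene's mean over the 4 libraries, with genes grouped by module and ordered by fold change. Colours and shapes mark the 4 libraries as labelled. Replicate 1 labelled WT (dark triangles) is the lowest library for 36 of the 46 members drawn.

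Core and accessory subunits differed in where their fold changes lay. The 7 nuclear core subunits had a median log2 fold change of -0.01, with 3 above and 4 below 0 (NDUFV1 turns to -0.01 when scaled by library size alone), whereas the 30 accessory subunits had a median of 0.26, with 27 above and 3 below 0. Without the 7 subunits that share coding bases on the same strand, a choice made after the data were seen, 3 of 6 core and 24 of 24 accessory subunits were above 0, of which NDUFA10, at 0.00, was just below 0 with DESeq2 size factors, library size alone or mitochondrially encoded genes left out. The accessory genes are shorter, with a median deposited length of 1835 bases against 4523 bases for the core genes, and across all tested genes shorter genes had slightly higher fold changes (Pearson's r = -0.10 between log2 length and log2 fold change, n = 17564 genes, which are not independent replicates). Across all 47 members r was -0.07. Among the 38 without coding bases shared on the same strand and outside the NDUFA4 family, r was -0.38. After removal of the trend with length the medians were -0.02 for core and 0.17 for accessory subunits. With a WT-labelled library dropped, the accessory median was 0.10 (replicate 1) or 0.40 (replicate 2), and with a CPT2 KO-labelled library dropped it was 0.38 (replicate 1) or 0.12 (replicate 2). In the same order the core median was 0.00, 0.02, 0.04 and -0.09. Of the 24 accessory subunits, 21 stayed above 0 when replicate 1 labelled WT was dropped and 22 when replicate 2 labelled CPT2 KO was. Core and accessory subunits also differed within a label. Replicate 2 over replicate 1 gave median log2 ratios of 0.04 (core) and 0.29 (accessory) for the WT-labelled libraries. For the CPT2 KO-labelled libraries these medians were 0.20 and 0.29. The difference between both kinds of subunit was not tested, and 0 of either kind were called.

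**Figure D3:**
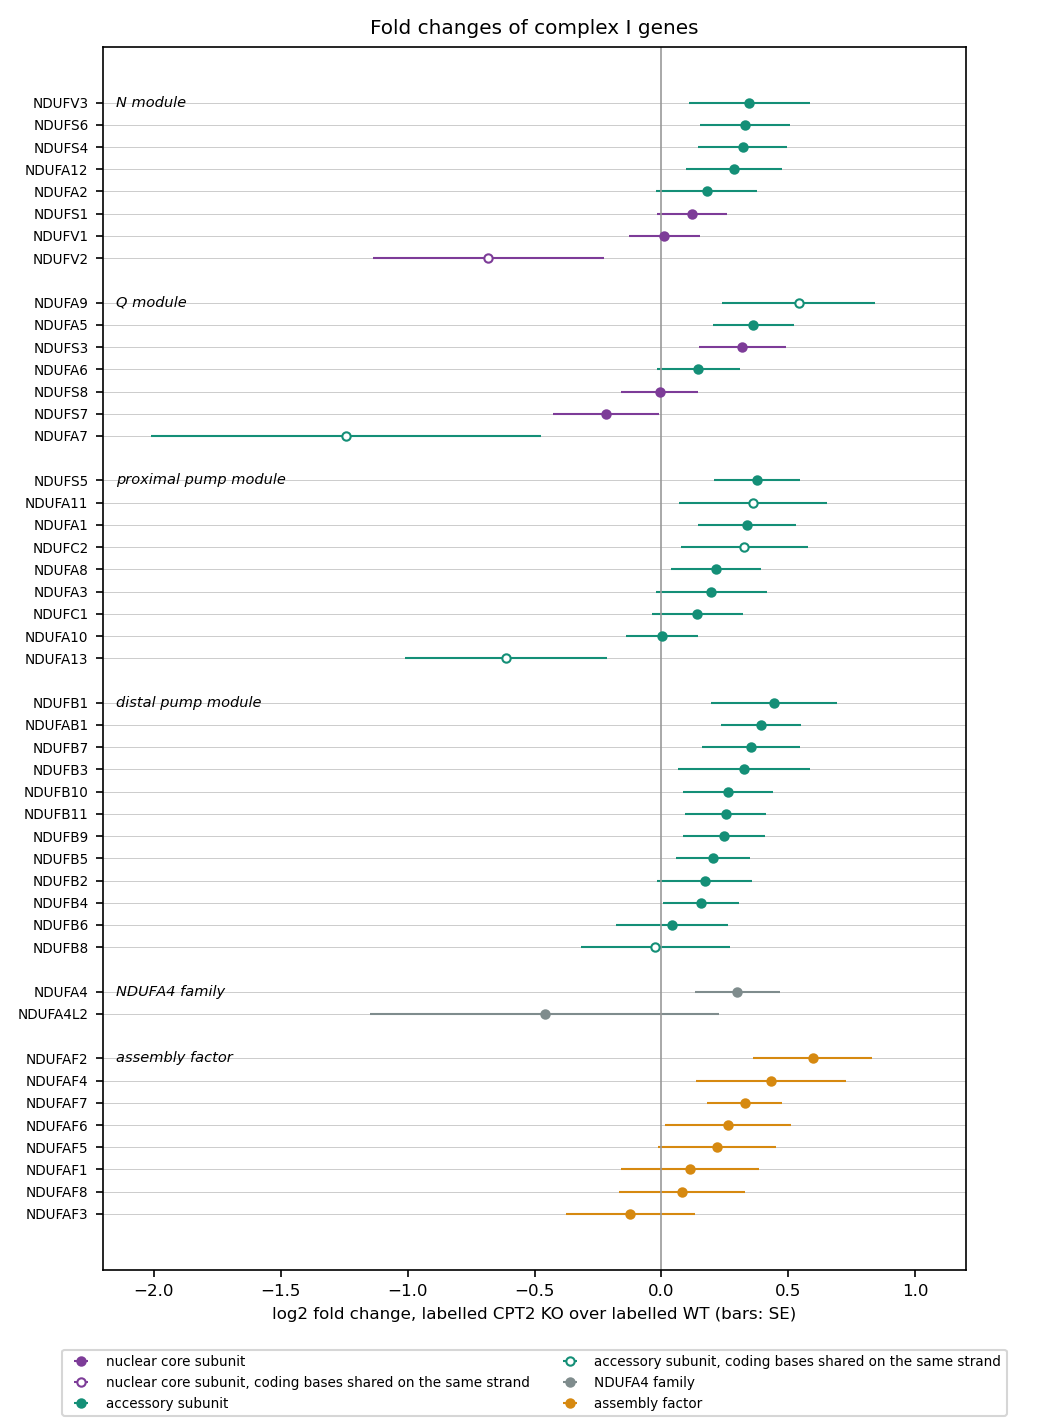
Log2 fold change of 46 members, CPT2 KO-labelled over WT-labelled libraries, with bars of 1 SE from edgeR. Colour marks core, accessory, NDUFA4 family and assembly factor genes, and open points mark the 7 subunits that share coding bases on the same strand. Accessory subunits drawn with filled points all lie above 0, at log2 fold changes of 0.00 to 0.44, with NDUFA10 at 0.00 falling just below 0 under other scalings, and no member was called.

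Module medians moved with the libraries kept. When replicate 1 labelled WT was dropped they were 0.05 for the N module, 0.02 for the Q module, 0.06 for the proximal and 0.12 for the distal membrane arm. Dropping replicate 2 labelled WT gave 0.34, 0.18, 0.48 and 0.34 in the same order of modules. Dropping replicate 1 labelled CPT2 KO gave 0.23, 0.15, 0.36 and 0.40, and dropping replicate 2 labelled CPT2 KO gave 0.17, -0.01, 0.10 and 0.09. The order of the modules changed with the library dropped.

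The N module, which holds the flavin that accepts electrons from NADH, had a median log2 fold change of 0.23 over 8 genes, with 7 above 0 (6 when scaled by library size alone). NDUFV1, the core subunit that binds NADH and the flavin, had 88.9 and 102 CPM in the CPT2 KO-labelled libraries, against 94.3 and 95.3 CPM in the WT-labelled libraries. Its groups overlapped, with a log2 fold change of 0.01 (SE 0.14, edgeR adjusted p = 0.988). NDUFS1, the core subunit with the most iron-sulfur clusters, had 121 and 116 CPM against 102 and 116 CPM. Replicate 1 labelled WT was low and the other 3 libraries lay close together, with a log2 fold change of 0.12 (SE 0.14, adjusted p = 0.810). NDUFV2 had only 18 and 28 counts in the CPT2 KO-labelled libraries, against 36 and 43 counts in the WT-labelled libraries. Here the groups did not overlap, and the log2 fold change was -0.68 (SE 0.46, adjusted p = 0.675).

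Among the accessory subunits of the N module the fold changes were highest for NDUFV3 and NDUFS6. NDUFV3, a small subunit at the NADH end, had 32.9 and 41.4 CPM in the CPT2 KO-labelled libraries, against 21.8 and 36.4 CPM in the WT-labelled libraries. The low value was again that of replicate 1 labelled WT, and the log2 fold change was 0.35 (SE 0.24, adjusted p = 0.686). NDUFS6, which carries a zinc site, had 49.2 and 59.8 CPM against 37.8 and 48.9 CPM, narrowly without overlap, with a log2 fold change of 0.33 (SE 0.18, adjusted p = 0.613). NDUFA2, NDUFA12 and NDUFS4 had log2 fold changes of 0.18, 0.29 and 0.32, and in each of them both CPT2 KO-labelled libraries were above both WT-labelled ones.

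The Q module, through which electrons reach ubiquinone, split evenly: 4 of 8 genes lay above 0, and the median log2 fold change was 0.07. Of its core subunits, NDUFS8, which carries iron-sulfur clusters, had 41.9 and 44.9 CPM in the CPT2 KO-labelled libraries, against 41.5 and 45.7 CPM in the WT-labelled libraries. Its groups overlapped, with a log2 fold change of -0.01 (SE 0.15). NDUFS7, which holds the last iron-sulfur cluster before ubiquinone, had 11.6 and 14.6 CPM against 14.96 and 15.4 CPM, and a log2 fold change of -0.22 (SE 0.21). For NDUFS3, a core subunit without a redox centre, the values were 42.7 and 56.2 CPM against 38.97 and 40.1 CPM. Its groups did not overlap, replicate 2 labelled CPT2 KO was the high library, and the log2 fold change of 0.32 (SE 0.17, adjusted p = 0.612) was the highest of any core subunit.

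Accessory subunits of the Q module spanned the widest range of any module. NDUFA7 had 4 and 5 counts in the CPT2 KO-labelled libraries, against 10 and 13 counts in the WT-labelled libraries, and its log2 fold change of -1.24 (SE 0.77, adjusted p = 0.647) rests on these few reads. NDUFA9, which lies beside the ubiquinone channel and binds a nucleotide, had 8.56 and 11.3 CPM against 4.93 and 8.54 CPM. Its log2 fold change of 0.54 (SE 0.30, adjusted p = 0.621) was the highest of any subunit. NDUFA5, an accessory subunit on the matrix arm, had 102 and 121 CPM against 76.6 and 96.2 CPM. All 4 of its values were well covered by reads, the groups did not overlap, and the log2 fold change was 0.36 (SE 0.16, adjusted p = 0.542). NDUFA6 had a log2 fold change of 0.15 with overlapping groups.

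The nuclear genes of the proximal membrane arm are all accessory, since the core pumps there are made from mitochondrial DNA. Their median log2 fold change was 0.22, with 8 of 9 above 0 (7 with DESeq2 size factors or library size alone). NDUFS5 (chr1:39026318-39034636, plus strand), an accessory subunit on the intermembrane side of the arm, had 169 and 219 CPM in the CPT2 KO-labelled libraries, against 132 and 167 CPM in the WT-labelled libraries. The groups did not overlap, although replicate 1 labelled CPT2 KO and replicate 2 labelled WT were nearly equal, and the log2 fold change was 0.38 (SE 0.17, adjusted p = 0.549). NDUFA1, a small membrane subunit encoded on the X chromosome, had 29.4 and 33.3 CPM against 21.0 and 28.5 CPM, with a log2 fold change of 0.34 (SE 0.19, adjusted p = 0.629). NDUFA11, a membrane-embedded subunit, had 6.78 and 8.74 CPM against 4.77 and 7.18 CPM. Its groups overlapped, with a log2 fold change of 0.36 (SE 0.29, adjusted p = 0.728).

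At the low end of the proximal arm, NDUFA13, also known as GRIM-19, had 30 and 26 counts in the CPT2 KO-labelled libraries, against 46 and 45 counts in the WT-labelled libraries. Both CPT2 KO-labelled values were the lower ones, and the log2 fold change was -0.61 (SE 0.40, adjusted p = 0.664). NDUFA10, a large accessory subunit related to nucleoside kinases, had 70.3 and 80.1 CPM against 73.9 and 76.3 CPM, so that the WT-labelled values lay between those labelled CPT2 KO. Its log2 fold change was 0.00 (SE 0.14, adjusted p = 0.999). NDUFA3, NDUFA8, NDUFC1 and NDUFC2 had log2 fold changes of 0.20, 0.22, 0.14 and 0.33.

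The distal membrane arm, the far end of the proton pump, had a median log2 fold change of 0.25 over 12 accessory genes, with 11 above 0. NDUFB1, a small membrane subunit, had 26.3 and 33.3 CPM in the CPT2 KO-labelled libraries, against 16.2 and 27.6 CPM in the WT-labelled libraries. Replicate 1 labelled WT was low, the groups overlapped, and the log2 fold change was 0.44 (SE 0.25, adjusted p = 0.624). NDUFAB1, the mitochondrial acyl carrier protein, belongs to complex I and also serves mitochondrial fatty acid synthesis. It had 69.1 and 78.4 CPM against 50.2 and 62.0 CPM, with no overlap between the groups and a log2 fold change of 0.39 (SE 0.16, adjusted p = 0.504).

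NDUFB8 and NDUFB6 had the lowest fold changes of the distal arm. NDUFB8, a membrane subunit often used to follow the assembled complex by antibody, had 5.74 and 5.60 CPM in the CPT2 KO-labelled libraries, against 6.94 and 4.66 CPM in the WT-labelled libraries. NDUFB6 had 14.3 and 20.2 CPM against 15.3 and 17.96 CPM. In both genes the values of one group enclosed those of the other, with log2 fold changes of -0.02 (SE 0.30) and 0.04 (SE 0.22). The other 8 genes, NDUFB2, NDUFB3, NDUFB4, NDUFB5, NDUFB7, NDUFB9, NDUFB10 and NDUFB11, lay between 0.16 and 0.35, and the groups overlapped in 5 of them.

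NDUFA4 and NDUFA4L2 carry complex I names, but NDUFA4 is now known as a subunit of cytochrome c oxidase, and RefSeq lists it as COXFA4. NDUFA4 had 156 and 199 CPM in the CPT2 KO-labelled libraries, against 127 and 161 CPM in the WT-labelled libraries. The groups overlapped, with a log2 fold change of 0.30 (SE 0.17, adjusted p = 0.621). NDUFA4L2, its paralogue and a known target of hypoxia-inducible factor, had 15 and 7 counts against 23 and 9 counts. Its log2 fold change was -0.46 (SE 0.69, adjusted p = 0.864) and turned to 0.44 without replicate 1 labelled WT, the library with the most counts.

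The 8 NDUFAF assembly factors had a median log2 fold change of 0.24, close to that of the subunits (0.22), with 7 of 8 above 0 and 0 called. NDUFAF2 (chr5:60945129-61153037, plus strand), a chaperone related to the subunit NDUFA12 that acts late in assembly, had 23.4 and 28.7 CPM in the CPT2 KO-labelled libraries, against 13.3 and 21.0 CPM in the WT-labelled libraries. Its groups did not overlap, and the log2 fold change of 0.60 (SE 0.23, adjusted p = 0.488) was the highest of all 47 members. NDUFAF7, a methyltransferase of the mitochondrial matrix, had 63.1 and 70.4 CPM against 50.8 and 55.5 CPM. It was the other assembly factor without overlap, at a log2 fold change of 0.33 (SE 0.15, adjusted p = 0.549).

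NDUFAF3 and NDUFAF4 work together in building the Q module, but their values differed. NDUFAF4 (chr6:96889313-96897881, minus strand) had 38.95 and 50.4 CPM in the CPT2 KO-labelled libraries, against 22.9 and 43.2 CPM in the WT-labelled libraries, whose replicate 1 was the low library. NDUFAF3 had 8.02 and 6.33 CPM against 8.18 and 7.52 CPM, with replicate 2 labelled CPT2 KO lowest. Both genes' groups overlapped, with log2 fold changes of 0.43 (SE 0.29, adjusted p = 0.693) and -0.12 (SE 0.25, adjusted p = 0.914).

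NDUFAF1, a factor of the membrane arm's early assembly, had 12.7 and 13.5 CPM in the CPT2 KO-labelled libraries, against 8.67 and 15.4 CPM in the WT-labelled libraries. Its WT-labelled values were the lowest and the highest of the 4, and the log2 fold change was 0.11 (SE 0.27). NDUFAF5, an enzyme that hydroxylates the core subunit NDUFS7, had 14.8 and 13.9 CPM against 10.1 and 14.6 CPM, and a log2 fold change of 0.22 (SE 0.23). NDUFAF6 had 8.76 and 11.0 CPM against 7.42 and 8.98 CPM, and a log2 fold change of 0.26 (SE 0.25). NDUFAF8, which stabilises NDUFAF5, had 11.1 and 14.2 CPM against 9.76 and 14.0 CPM, and a log2 fold change of 0.08 (SE 0.25). In all of these the groups overlapped and replicate 1 labelled WT was the lowest library.

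The size of the difference depended on which libraries were kept. With replicate 2 labelled WT left out, so that replicate 1 alone stood for the group and was assumed to vary like the other group, edgeR called 6 members higher in the CPT2 KO-labelled libraries (12.8%, against 3.02% of all tested genes). They were NDUFAF4 (log2 fold change 0.96, adjusted p = 0.00158), NDUFAF2 (0.97, adjusted p = 0.00645), NDUFB1 (0.88, adjusted p = 0.0102), NDUFV3 (0.76, adjusted p = 0.0185), NDUFS5 (0.56, adjusted p = 0.0388) and NDUFA5 (0.54, adjusted p = 0.0496). With replicate 1 left out instead, and replicate 2 under the same assumption, edgeR called 0 of 47, where 0.848% of all tested genes were called, and the same genes had log2 fold changes of 0.05, 0.31, 0.11, 0.03, 0.22 and 0.21. The median of the 39 subunit genes was 0.34 without replicate 2 and 0.10 without replicate 1. That of the assembly factors was 0.46 without replicate 2 and 0.01 without replicate 1. The CPT2 KO-labelled libraries moved the subunit median as much, to 0.31 without replicate 1 and 0.10 without replicate 2, but with either left out 0 of 47 members were called (against 0.188% and 0.473% of all tested genes), and the assembly factors stood at 0.33 and 0.17.

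Between single libraries, the accessory subunits of replicate 2 labelled WT had a median log2 ratio of 0.29 over replicate 1 with the same label, with 28 of 30 above 0. This was as large as the median of 0.28 for replicate 1 labelled CPT2 KO over replicate 1 labelled WT. Replicate 1 labelled CPT2 KO over replicate 2 labelled WT gave 0.01, replicate 2 labelled CPT2 KO over the same library gave 0.22, and over replicate 1 labelled WT it gave 0.52. Replicate 2 labelled CPT2 KO over replicate 1 of its own label gave 0.29, with 26 of 30 above 0, so the libraries of either label differed by about the same amount. For the assembly factors the ratio of both WT-labelled libraries was larger still, with a median of 0.52.

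**Figure D4:**
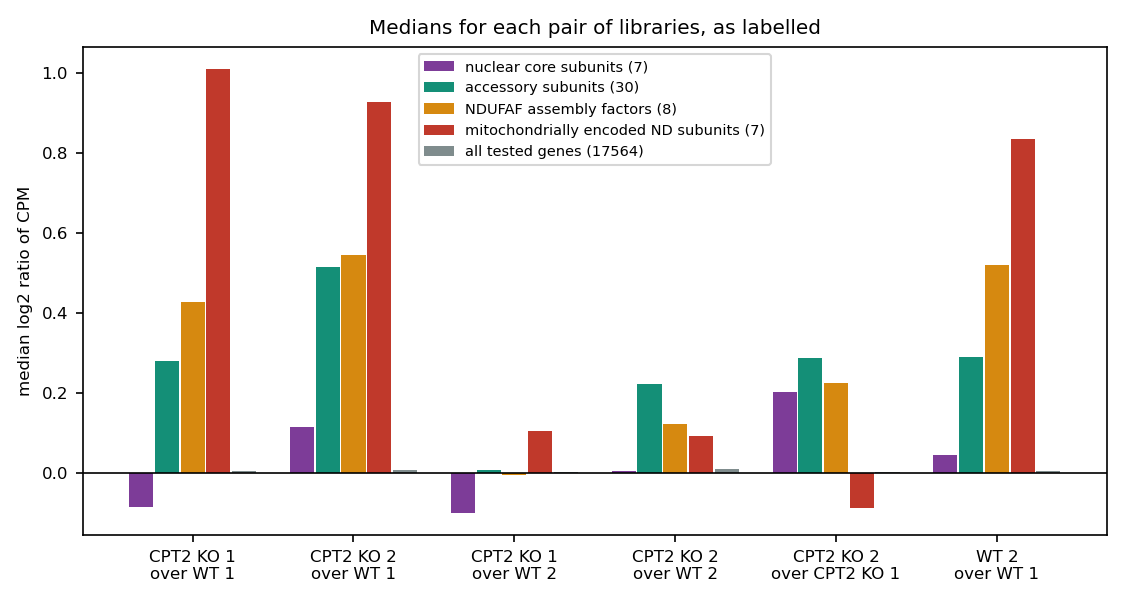
Median log2 ratio of CPM for each pair of libraries, over the core, accessory and assembly factor genes, the 7 mitochondrially encoded subunits and all 17564 tested genes. The last 2 pairs compare libraries of the same label. Accessory subunits reach 0.29 between the WT-labelled libraries, beside 0.01 for replicate 1 labelled CPT2 KO over replicate 2 labelled WT.

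The mitochondrially encoded ND subunits, which form the remaining core of the membrane arm, followed replicate 1 labelled WT even more closely. All 7 had a log2 fold change above 0, from 0.36 to 0.59 with a median of 0.47, and 0 were called. MT-ND4, a distal pump subunit, had 11570 and 10800 CPM in the CPT2 KO-labelled libraries, against 5572 and 9768 CPM in the WT-labelled libraries. MT-ND1, which lies at the ubiquinone end of the membrane arm, had 2844 and 3299 CPM against 1734 and 2862 CPM. The 3 libraries other than replicate 1 labelled WT lay close together in both genes, with log2 fold changes of 0.54 (SE 0.24, adjusted p = 0.565) and 0.42 (SE 0.22, adjusted p = 0.619). Without replicate 2 labelled WT the median of the 7 was 0.95, and without replicate 1 labelled WT it was 0.10. All mitochondrially encoded genes together made up 7.84% and 7.73% of counts in the CPT2 KO-labelled libraries and 4.15% and 7.21% in the WT-labelled libraries. MT-ND4L overlaps MT-ND4, and MT-ND6 lies on the other strand beside MT-ND5, so single values of these genes may share reads.

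Assembly of complex I also needs factors outside the NDUFAF family. Of 11 such genes, 7 had a log2 fold change above 0, the median was 0.08, and 0 were called. TMEM126B, a membrane component of the early assembly complex, had 51.7 and 60.6 CPM in the CPT2 KO-labelled libraries, against 31.2 and 49.4 CPM in the WT-labelled libraries. TMEM70, which acts in the assembly of complexes I and V, had 21.5 and 21.6 CPM against 12.7 and 19.9 CPM. The groups of both genes did not overlap, and their log2 fold changes of 0.48 (SE 0.21, adjusted p = 0.543) and 0.40 (SE 0.23, adjusted p = 0.628) were the highest of the 11. Without replicate 2 labelled WT their log2 fold changes were 0.84 and 0.76, and without replicate 1 labelled WT they were 0.18 and 0.12. ACAD9, ECSIT, COA1, TIMMDC1, TMEM186, FOXRED1, NUBPL, DMAC1 and DMAC2 lay between -0.17 and 0.12.

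Other respiratory complexes leaned the same way. Of 40 nuclear genes listed for complexes II to V, not all of them subunits, 36 had a log2 fold change above 0. Their median was 0.24, and 0 were called. Of 11 regulators of respiratory genes, 7 were above 0 (6 when scaled by library size alone), with a median of 0.04, and 0 were called. NRF1, the factor whose letters are marked above, had 21.1 and 20.4 CPM in the CPT2 KO-labelled libraries, against 25.8 and 20.9 CPM in the WT-labelled libraries. TFAM, which packages and transcribes mitochondrial DNA, had 119 and 120 CPM against 90.8 and 120 CPM. Replicate 1 labelled WT was the outermost library in both, with log2 fold changes of -0.16 (SE 0.19, adjusted p = 0.811) and 0.18 (SE 0.16, adjusted p = 0.747).

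Hypoxia response genes moved with the same library in the other direction. The list was included because hypoxia-inducible factor is known to lower mitochondrial respiration and to raise NDUFA4L2. Its 15 genes summed to 1223 and 1028 TPM in the CPT2 KO-labelled libraries and to 3368 and 1130 TPM in the WT-labelled libraries. BNIP3, a mitochondrial protein that promotes removal of mitochondria, had 4014 and 1773 counts against 10932 and 2382 counts. All 14 tested genes of the list had a log2 fold change below 0, with a median of -0.84 and 0 called, and COX4I2 had no counts. Without replicate 1 labelled WT the median was 0.16. For replicate 2 over replicate 1 labelled CPT2 KO, the median log2 ratio was -0.71 for the hypoxia genes (5 of 14 above 0) and 0.29 for the accessory subunits. For replicate 1 labelled CPT2 KO over replicate 2 labelled WT, these medians were 0.41 (12 of 14 above 0) and 0.01. The part of whatever these genes reflect in the complex I values was not tested, and with so few libraries it cannot be told apart from other properties of the libraries.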

How the data were processed

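RNA was measured by bulk RNA-seq in 4 libraries of HUES8 cells. The authors deposited raw read counts per gene with a gene length, made with HISAT2 2.1.0 and featureCounts 1.6.4 on hg38 (GRCh38), per the submitters' processing notes. For the strand setting, the annotation release and the treatment of overlapping or multiply mapped reads the sources used here give nothing. Deposited lengths equal GENCODE release 29 exon lengths for 77.8% of symbols with 1 position, and this release supplied positions and overlaps. Groups follow the genotype label, with 2 libraries each.

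Counts were filtered and scaled (filterByExpr and TMM) and tested with edgeR 4.0.16 (quasi-likelihood, robust, R 4.3.3) over 17564 genes, with Benjamini-Hochberg adjustment and a threshold of 0.05. DESeq2 1.42.0 and limma 3.58.1 were alternatives. CPM use TMM-scaled library sizes, and TPM use the deposited length. One count was worth 0.0485 to 0.0603 CPM. The fit was tested on simulated data. Replicate numbers are shared between labels without a stated pairing, so no block was used.

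Members, gene lists and tests were chosen with earlier results of these data known. Members given with values in every library are the nuclear core subunits, the NDUFA4 family, every NDUFAF gene, the 2 highest and 2 lowest fold changes of each module, the 2 highest and 2 lowest by TPM, and any member called with 1 library left out. The values of 1 member are not reported here, although counts and medians over the members include it.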

Additional observations from a re-analysis of the deposited data

How the results depend on the processing

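Over 15 alternatives, edgeR, DESeq2 and limma-voom called 0 of 47 members, except that 6 were called when 1 library, replicate 2 labelled WT, was left out (0 to 6 over the libraries left out in turn). Over all tested genes the 73 calls became 124 without a filter on low counts, 183 with DESeq2 and 33 to 1205 with 1 library left out (33 without replicate 1 labelled CPT2 KO, 149 without replicate 1 and 1205 without replicate 2 labelled WT). The fit with a replicate block called 373 genes and 0 members, and differences between replicates 1 and 2 correlated at 0.196 between labels across all tested genes and at 0.471 across the 47 members. With only 2 pairs this does not show that the numbers pair the libraries. The median of the subunits kept its sign, at 0.10 to 0.34 with 1 library left out and 0.16 with the length trend removed. The median of the assembly factors was 0.0134 to 0.4601 with 1 library left out, the lowest value being without replicate 1 labelled WT. Of 30 members followed, 10 turned sign somewhere, and the cause was not tested. NDUFA10 turned to -0.0011 with DESeq2 size factors, -0.0202 with library size alone, -0.0078 without a filter, -0.0037 without mitochondrially encoded genes, -0.0047 with DESeq2 and -0.0030 with limma-voom. NDUFV1 turned to -0.0115 with library size alone, NDUFAF8 to -0.0155 and NDUFB6 to -0.0550 with the length trend removed, and NDUFB8 to 0.0095 with limma-voom. With 1 library left out the log2 fold change spanned -0.0910 to 0.0935 for NDUFA10, -0.0897 to 0.1084 for NDUFV1, -1.0541 to 0.4448 for NDUFA4L2, -0.2374 to 0.5940 for NDUFAF1, -0.3116 to 0.0338 for NDUFAF3, -0.0206 to 0.5143 for NDUFAF5, -0.1564 to 0.3676 for NDUFAF8, -0.2208 to 0.2770 for NDUFB6, -0.2890 to 0.2846 for NDUFB8 and -0.0752 to 0.0644 for NDUFS8. Depth limits NDUFA7, NDUFA4L2, NDUFV2 and NDUFA13 most, with 4 to 46 counts per library.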

Other observations

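The entries left out of the member list held few reads. Of 59 pseudogene entries with these prefixes, 15 had any count, and together they held 60 and 75 counts in the CPT2 KO-labelled libraries, against 62 and 68 counts in the WT-labelled libraries. The 4 hyphenated entries held 53 and 41 counts against 55 and 49 counts.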
